A study of Mus musculus with 10 samples.

Results

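The genes described here are the 10 mouse genes that encode the MHC class II chains (H2-Aa, H2-Ab1, H2-Eb1), the invariant chain (Cd74), the peptide exchange factor H2-DM (H2-DMa, H2-DMb1, H2-DMb2), its inhibitor H2-O (H2-Oa, H2-Ob) and the class II transactivator (Ciita). They were taken by name from the 41813 genes listed in the RNA-seq tables, and 10 of 10 were matched to a gene ID. All 10 passed the filter on low counts that left 13946 genes for testing. The cells were mouse bone marrow-derived dendritic cells, recorded as CD11c+ with high MHC class II, a definition that itself uses class II protein. Messenger RNA was measured in 3 activated and 3 non-activated libraries. Per the series design, dendritic cells given lipopolysaccharide (LPS, a bacterial agonist of TLR4) were either pulsed with the ovalbumin peptide OVA323-339 or left without it, and all were then kept for 24 h with CD4+ OT-II T cells, which recognise that peptide on class II. The sample labels instead record LPS stimulation for activated cells and none for non-activated cells. The groups are therefore named as in the sample titles and what separates them is not settled by the labels. The labels name no strain or age for the dendritic cells. A further 4 samples, 2 of each group, measured chromatin accessibility by ATAC-seq and were not analysed here.

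MHC class II molecules are surface heterodimers that show peptides from endosomes to CD4 T cells. Newly made chains assemble in the endoplasmic reticulum around the invariant chain, which blocks the groove and carries the complex to endosomes. There proteases cut the invariant chain down to a short fragment, H2-DM exchanges that fragment for antigenic peptide, and H2-O binds H2-DM and restrains it. CIITA does not itself bind DNA. It is recruited to class II promoters by the RFX complex, CREB and NF-Y, which sit on the X and Y boxes. Its own gene is induced by interferon gamma, in part through IRF1. In dendritic cells class II transcription is known to be high in immature cells and to decline after maturation, while surface class II is kept by slower turnover.

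The X and Y boxes are shown first because they are the sequence that class II genes share and through which CIITA acts. RefSeq promoters on GRCm38.p6, spanning 250 bases before to 50 bases after the start, were in the table for 7 of the 10 genes; H2-Ab1, Cd74 and Ciita had no entry. The core of the Y box was searched as GATTGG and that of the RFX site in the X box as AAC lying 24 to 27 bases upstream of it, letters chosen after reading these promoters. GATTGG, on either strand, was found in 16.1% of 32851 promoters and in those of 7 of the genes. AAC with 24 to 27 bases before GATTGG, also on either strand, was found in 0.913% of promoters and in those of 6 of the genes. This spacing runs exactly from the smallest to the largest gap in these 6, so their match is no test against that share. The 6 stretches are given 5′ to 3′ on the transcribed strand, with AAC and GATTGG in capitals.
H2-Aa: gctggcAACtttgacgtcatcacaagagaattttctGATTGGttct
H2-Eb1: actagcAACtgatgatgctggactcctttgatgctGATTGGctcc
H2-DMb1: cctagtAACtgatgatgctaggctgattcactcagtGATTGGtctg
H2-DMb2: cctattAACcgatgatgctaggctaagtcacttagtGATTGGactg
H2-Oa: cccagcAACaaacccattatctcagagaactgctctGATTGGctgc
H2-Ob: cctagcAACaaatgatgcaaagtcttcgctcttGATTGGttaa

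These stretches lie at chr17:34287863-34287908 on the minus strand for H2-Aa and, on the plus strand, at chr17:34305772-34305816 for H2-Eb1, chr17:34153093-34153138 for H2-DMb1, chr17:34145122-34145167 for H2-DMb2, chr17:34092299-34092344 for H2-Oa and chr17:34238814-34238856 for H2-Ob. The gap between the capitals was 27 bases in H2-Aa, H2-DMb1, H2-DMb2 and H2-Oa, 26 bases in H2-Eb1 and 24 bases in H2-Ob, and GATTGG began 44 to 91 bases before the transcription start of the promoter entry. For H2-DMb2 that start is not the outermost one, as its stretch lies inside the annotated gene (34143229 to 34151553). AACNNATG, a longer form of the RFX site seen in H2-Eb1, H2-DMb1, H2-DMb2 and H2-Ob, occurred in 8.86% of all promoters on either strand. Of the genes with an entry, H2-DMa held GATTGG without AAC at that distance. These are matches of letters only, and binding was not measured here. The 8 genes other than Ciita and Cd74 lie together on chromosome 17 within 224296 bases, from H2-Oa (start 34092379) to H2-Eb1 (end 34316674), whereas Ciita is on chromosome 16 (10480014 to 10531064) and Cd74 on chromosome 18 (60803849 to 60812652). In the annotation H2-DMa overlaps Brd2, H2-Oa overlaps the non-coding BC051537 and Ciita overlaps Dexi, and reads in such overlaps cannot be assigned by strand here.

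Summed expected counts were 21338012 to 27404937 per activated library and 23441520 to 25789923 per non-activated library. The 10 genes took 1.10% to 1.58% of the total in activated libraries and 1.53% to 1.86% of it in non-activated libraries, and H2-Oa, the least counted, had 431 to 525 expected counts against 644 to 799.6. The libraries numbered 1 stood apart from the rest in both groups. Trac, the constant region of the T cell receptor alpha chain, stood at 7420 CPM in activated replicate 1 and 7444 CPM in non-activated replicate 1, against 8.88 and 27.8 CPM in the other activated and 2.73 and 5.11 CPM in the other non-activated libraries (CPM, counts scaled to library size with TMM factors). Trbc2 followed, at 107 and 106 CPM against at most 1.88 CPM. Cd3e stood at 1.90 CPM in activated replicate 1 and at most 0.408 CPM in any other library. Cd3d, Cd3g, Cd4, Cd5, Lck and Trbc1 were also highest in activated replicate 1, Cd5 at 6.13 against at most 2.17 CPM. Thy1 was not, at 9.92 CPM there and 11.6 CPM in non-activated replicate 3. Apart from Trac and Trbc2, the other 8 of 10 T cell markers, none of them at 0 throughout, were also summed. They came to 13.3 to 28.2 CPM in the activated libraries, most in replicate 1, and 11.5 to 14.6 CPM in the non-activated ones. Of the 3 of these with enough counts to test, 1, Lck, was higher in activated cells. Results are therefore given also without both replicate 1 libraries. The 6 B cell markers, of interest because B cells too express class II and H2-O, summed to 2.07 to 3.23 CPM in the activated libraries and 0.457 to 0.733 CPM in the non-activated ones. Cd79b, the only 1 tested, was higher in activated cells, at 1.14 to 2.84 against 0.0420 to 0.284 CPM. Dendritic cell markers were present in every library (Itgax, which encodes CD11c, at 198 to 442 CPM in the activated and 295 to 437 CPM in the non-activated ones), and 5 of 8 (Fscn1, Ccr7, Irf4, Zbtb46 and Irf8) were higher in activated cells and 0 lower. They summed to 6103 to 7510 CPM against 2298 to 2691 CPM, with most of the difference in Fscn1 (2738 to 3491 against 476 to 629 CPM) and Ccr7 (1485 to 2069 against 583 to 696 CPM), genes known to rise as dendritic cells mature. Itgax, Flt3 and Batf3 had log2 fold changes of -0.10, -0.01 and -0.19 and did not pass. Of 6 macrophage and monocyte markers 0 were higher and 2 lower, with sums of 1383 to 1904 CPM in the activated libraries and 1533 to 1891 CPM in the others. Of 5 plasmacytoid dendritic cell markers 2 were tested, and 1, Tcf4, was higher and 0 lower, with sums of 261 to 305 against 243 to 299 CPM. Nearly all of these sums came from Tcf4 and Bst2, the other gene tested. Siglech, Ccr9 and Klk1 reached at most 0.114, 0.621 and 0.0765 CPM in any library. The part of these markers in the class II results was not tested. In bulk RNA, fewer cells of a type and less RNA per cell cannot be told apart.

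By level per transcript length (TPM), the genes kept a similar order in both groups. Cd74 was highest, at 9372 ± 1931 TPM in activated and 10728 ± 1062 TPM in non-activated cells (SD, n = 3 each). The classical chains followed: H2-Ab1 at 3994 ± 819 and 4191 ± 491 TPM, H2-Aa at 3321 ± 695 and 4336 ± 586 TPM, and H2-Eb1 at 2842 ± 791 and 3488 ± 680 TPM, each in activated and then non-activated cells. The 3 H2-DM genes lay well below, with means of 129 to 296 TPM in activated cells and 106 to 240.4 TPM in non-activated cells. Ciita (70.2 ± 18.4 and 46.3 ± 7.74 TPM), H2-Ob (35.4 ± 11.9 and 39.4 ± 9.64 TPM) and H2-Oa (32.5 ± 6.59 and 46.7 ± 8.23 TPM) were the lowest. Within the order, the ranges of Cd74 and the next gene did not overlap in either group, nor did those of H2-Eb1 and H2-DMb1, whereas H2-Ab1, H2-Aa and H2-Eb1 overlapped with their neighbours. Ciita stood above H2-Ob and H2-Oa without overlap in activated cells, but in non-activated cells the 3 ranges overlapped. H2-DMb2, the lowest of the H2-DM genes, overlapped with Ciita in activated cells but not with the 3 lowest genes in non-activated cells. Of the class II genes outside the group, H2-Eb2 was at 0.810 to 1.89 TPM in the activated libraries and 1.30 to 2.59 TPM in the others. H2-Ea-ps, the listed pseudogene of the I-E alpha chain that would pair with the H2-Eb1 product, had 0 counts in activated cells and 1 count, in replicate 2, in non-activated cells.

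**Figure D1:**
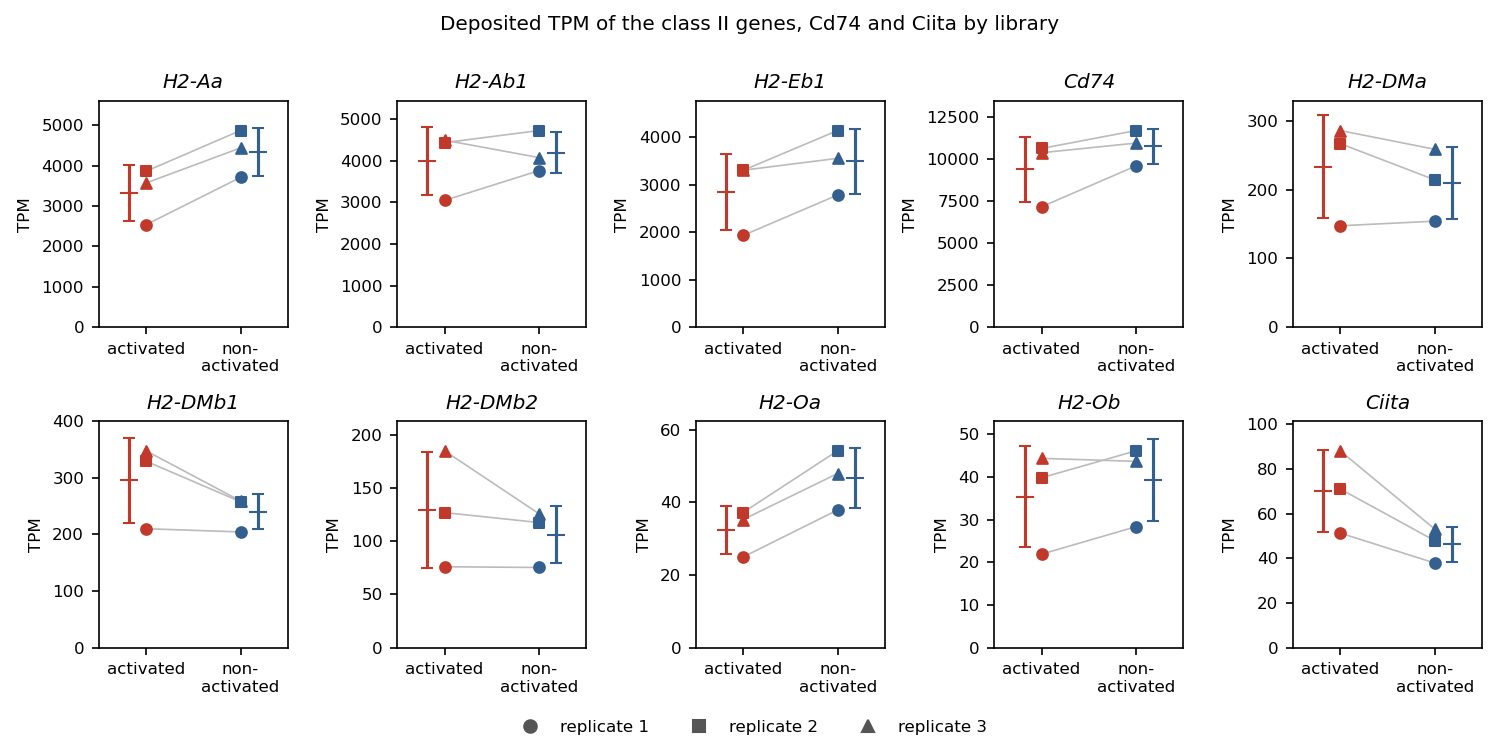
Deposited TPM (linear axes from 0) of the 10 genes in each activated and non-activated library; symbols mark the replicate number, grey lines join libraries with the same number, and bars show the mean ± SD (n = 3). All lines slope upwards to the right for H2-Aa, H2-Eb1, H2-Oa and Cd74 and downwards for Ciita, H2-DMb1 and, in replicate 1 only slightly, H2-DMb2. In the other panels the directions are mixed. Replicate 1 (circles) is the lowest of its group in every panel.

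The question, by the series design, is how class II expression in dendritic cells stands after culture with T cells that do or do not meet their antigen. Of the 10 genes 1, Ciita, was higher in activated cells, 0 were lower and 9 did not pass in edgeR's quasi-likelihood test (adjusted p under 0.05). Over all 13946 genes tested, 27.6% passed, 15.9% higher and 11.7% lower. An unadjusted p under 0.05 was reached by 3 of the 10 (Ciita, H2-Oa and H2-Aa) and by 39.5% of all genes tested. Log2 fold changes were positive for 4 genes (Ciita and the 3 H2-DM genes) and negative for the other 6, with a median of -0.13 against 0.01 over all genes tested. With the replicate number as a block, 6 of the 10 passed: Ciita and H2-DMb1 were higher and H2-Aa, H2-Eb1, H2-Oa and H2-Ob were lower, beside 37.2% of all genes, 20.0% higher and 17.2% lower. Without both replicate 1 libraries 3 passed, Ciita and H2-DMb1 higher and H2-Oa lower, beside 23.3% of all genes. The genes varied together between libraries. Activated replicate 1 was the lowest of its group for 10 of 10 genes and non-activated replicate 1 for 9 of 10, H2-Ab1 being the exception. In both, 9 of 10 were lowest, against 17.1% of all genes tested.

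**Figure D2:**
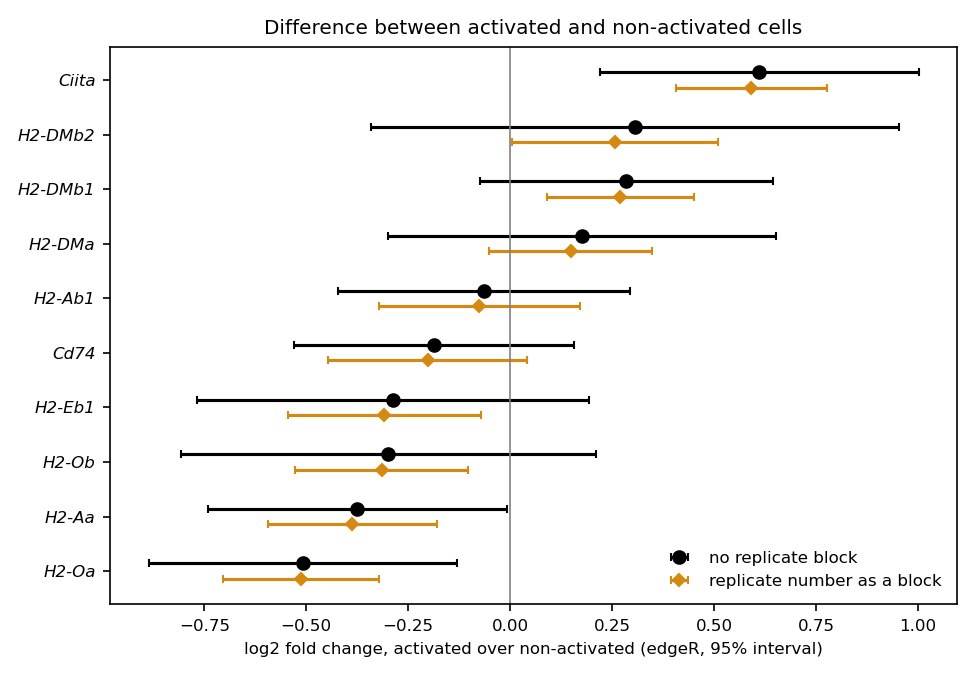
Log2 fold change of activated over non-activated cells for each gene, with 95% intervals from edgeR, without (black circles) and with (orange diamonds) the replicate number as a block. Estimates hardly move between the fits while intervals narrow; Ciita lies at 0.61 without the block and H2-Oa, the lowest, at -0.51.

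Ciita, the transactivator, had 183, 247 and 294 CPM in activated replicates 1 to 3, against 136, 165 and 174 CPM in the non-activated ones. Every activated library was above every non-activated one, as was so for 23.9% of all genes tested. The same-numbered libraries differed by 1.35-fold to 1.69-fold. Groups did not overlap in CPM, in either direction, for 2 of the 10 genes, Ciita and H2-Oa, and for 44.7% of all genes. Ciita was 1.53-fold higher in activated cells (log2 0.61 ± 0.17, SE; edgeR adjusted p = 0.0299). The difference was as large with the replicate block (log2 0.59 ± 0.08; edgeR adjusted p = 0.00083) and without both replicate 1 libraries (log2 0.66 ± 0.11; edgeR adjusted p = 0.00456). The call was lost when any 1 library other than activated replicate 1 was left out, with an edgeR adjusted p of 0.0591 to 0.0972 (range under every alternative 0.000827 to 0.098). It was also lost on the deposited TPM (limma adjusted p = 0.0964 and 0.098 with a pseudocount of 0.1 and 1), where the groups overlapped, at 51.3, 71.1 and 88.2 TPM in activated against 37.9, 47.9 and 53.1 TPM in non-activated libraries. The tables list 1 transcript for Ciita, so use of its alternative promoters cannot be read from these data.

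None of the 3 classical chain genes passed as higher in activated cells. H2-Aa, which encodes the I-A alpha chain, had 1685, 2495 and 2217 CPM in activated libraries 1 to 3, against 2472, 3118 and 2704 CPM in the non-activated ones. Activated cells were lower within each number, at 0.682, 0.800 and 0.820 times the non-activated level, although the groups overlapped through activated replicate 2 and non-activated replicate 1. The log2 fold change was -0.37 ± 0.16 (SE; 95% interval -0.74 to -0.01) and did not pass (edgeR adjusted p = 0.119). It did pass with the replicate block (log2 -0.39 ± 0.09, edgeR adjusted p = 0.0107) and in DESeq2 (adjusted p = 0.032). It missed the threshold without both replicate 1 libraries (edgeR adjusted p = 0.0956) and with any 1 library left out (edgeR adjusted p = 0.055 to 0.324). It missed as well with no filter or RLE scaling (edgeR adjusted p = 0.0537 and 0.0981) and on the deposited TPM (limma adjusted p = 0.226 and 0.234). H2-Eb1, which encodes the I-E beta chain, had 1360, 2273 and 2183 CPM in activated against 1972, 2821 and 2306 CPM in non-activated libraries. It too was lower within each number, the groups overlapping (log2 -0.29 ± 0.21, SE; edgeR adjusted p = 0.353, and 0.046 with the replicate block). H2-Ab1, which encodes the I-A beta chain and lies beside H2-Aa, had 2191, 3118 and 3031 CPM in activated against 2729, 3296 and 2694 CPM in non-activated libraries, or 0.803, 0.946 and 1.13 times within the numbers. Its log2 fold change was -0.06 ± 0.16 (SE; 95% interval -0.42 to 0.29; edgeR adjusted p = 0.801). Its sign turned without activated replicate 1 (0.06), without non-activated replicate 2 (0.03) and without both replicate 1 libraries (0.02).

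The invariant chain gene Cd74 had 5401, 7834 and 7322 CPM in activated libraries, against 7301, 8522 and 7581 CPM in non-activated libraries. Same-numbered libraries were at 0.740, 0.919 and 0.966 times the non-activated level, and the ranges overlapped. The log2 fold change was -0.19 ± 0.15 (SE; 95% interval -0.53 to 0.16) and did not pass with or without the block (edgeR adjusted p = 0.172 and 0.398). Its ratio to the I-A chain transcripts was steady: Cd74 stood at 1.28, 1.28 and 1.28 times the summed TPM of H2-Aa and H2-Ab1 in activated libraries and at 1.28, 1.22 and 1.28 times in non-activated libraries.

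The genes of the peptide exchange factor H2-DM all had positive log2 fold changes. H2-DMb1, a beta chain gene, had 177, 266 and 249 CPM in activated against 165, 208 and 195 CPM in non-activated libraries, being 1.07-fold, 1.28-fold and 1.28-fold higher within the numbers. Its groups overlapped because of activated replicate 1. In the fit of all 6 libraries on group alone it did not pass (log2 0.28 ± 0.16, edgeR adjusted p = 0.218). It passed with the replicate block (log2 0.27 ± 0.08, edgeR adjusted p = 0.0279) and without both replicate 1 libraries (log2 0.34 ± 0.09, edgeR adjusted p = 0.0315). It also passed without activated replicate 1 alone (edgeR adjusted p = 0.0213). It missed the threshold when any other single library was left out (edgeR adjusted p = 0.223 to 0.525). It missed as well with no filter or RLE scaling (edgeR adjusted p = 0.200 and 0.231), in DESeq2 (adjusted p = 0.223) and on the deposited TPM (limma adjusted p = 0.387 and 0.390). H2-DMb2, a near copy of H2-DMb1, had 62.3, 103 and 144 CPM in activated against 61.3, 93.7 and 94.4 CPM in non-activated libraries (log2 0.31 ± 0.28; edgeR adjusted p = 0.466). Without activated replicate 3 its log2 fold change was -0.03. RSEM divides reads that match either beta gene between them by estimate, so their single values are uncertain. Summed into 1 gene they gave a log2 fold change of 0.29 (edgeR adjusted p = 0.292). H2-DMa, the alpha chain gene, had 110, 182 and 194 CPM in activated against 117, 155 and 158 CPM in non-activated libraries, or 0.944 to 1.22 times within the numbers (log2 0.18 ± 0.21; edgeR adjusted p = 0.576).

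The genes of the inhibitor H2-O pointed the other way. H2-Oa, its alpha chain gene, had 16.0, 23.5 and 21.5 CPM in activated against 24.5, 33.6 and 28.4 CPM in non-activated libraries. Every activated library lay below every non-activated one, as for 20.7% of all genes tested, and activated cells had 0.654, 0.700 and 0.754 times the non-activated level within the numbers. The log2 fold change of -0.51 ± 0.17 (SE; 95% interval -0.89 to -0.13) fell just short of the threshold (edgeR adjusted p = 0.0513). It passed with the replicate block (log2 -0.51 ± 0.08; edgeR adjusted p = 0.00195), without both replicate 1 libraries (log2 -0.48 ± 0.12; edgeR adjusted p = 0.0243), without activated replicate 2 (edgeR adjusted p = 0.033), without non-activated replicate 1 (edgeR adjusted p = 0.0405), with no filter on low counts (edgeR adjusted p = 0.00974), with RLE scaling (edgeR adjusted p = 0.0422) and in DESeq2 (adjusted p = 0.0171). It missed the threshold when activated replicate 1 or 3 was left out (edgeR adjusted p = 0.0833 and 0.0817), when non-activated replicate 2 was (0.165) and when non-activated replicate 3 was (0.115), and likewise on the deposited TPM (limma adjusted p = 0.0929 and 0.0943). H2-Ob, its beta chain gene, had 22.1, 35.4 and 39.3 CPM in activated against 30.8, 46.8 and 41.4 CPM in non-activated libraries. It was lower within each number, at 0.718, 0.756 and 0.949 times, with overlapping groups (log2 -0.30 ± 0.22; edgeR adjusted p = 0.361, and 0.0288 with the replicate block).

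Of 11 ratios between the genes taken within each library, 6 did not overlap between the groups and 5 did. Ratios and shares of other genes were not computed for comparison. In CPM, 44.7% of all genes tested did not overlap. Besides those given below, the ratios of H2-Oa to H2-DMa and H2-Oa to H2-DMb1 did not overlap. The 6 share genes among them, so they are not separate results. The summed TPM of H2-Oa and H2-Ob was 0.108, 0.107 and 0.0973 times that of the 3 H2-DM genes in activated libraries, against 0.153, 0.170 and 0.142 times in non-activated libraries, so the groups did not overlap. The mean ratio in activated cells was 0.670 times that in non-activated cells. The H2-Aa to H2-Ab1 ratio of TPM was 0.832, 0.870 and 0.793 in activated against 0.984, 1.03 and 1.09 in non-activated libraries, again without overlap. Ciita stood at 20.2, 18.4 and 24.7 TPM per 1000 TPM of H2-Aa in activated against 10.2, 9.84 and 12.0 in non-activated libraries, 1.98 times as much by mean. Per 1000 TPM of H2-Ab1, Ciita stood at 16.8, 16.0 and 19.6 TPM against 10.1, 10.1 and 13.0 TPM, also without overlap. That was 1.58 times as much by mean. As shares of the summed TPM of the 10 genes, H2-Aa took 15.7% to 16.7% in activated cells and 18.2% to 18.7% in non-activated cells, H2-Ab1 19.2% to 20.1% and 17.1% to 18.5%, and H2-DMb1 1.38% to 1.53% and 0.986% to 1.09%, in the same order of groups. Shares did not overlap for 5 of the 10 genes, H2-Oa and Ciita being the others, and overlapped for H2-Eb1, Cd74, H2-DMa, H2-DMb2 and H2-Ob. The overlapping ratios were H2-Eb1 to H2-Ab1, H2-Oa to H2-Ob, H2-DMb1 to H2-DMb2, H2-DMa to the summed beta genes, and Cd74 to the I-A chains. These ratios were formed from genes chosen with results known and are given without a test.

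**Figure D3:**
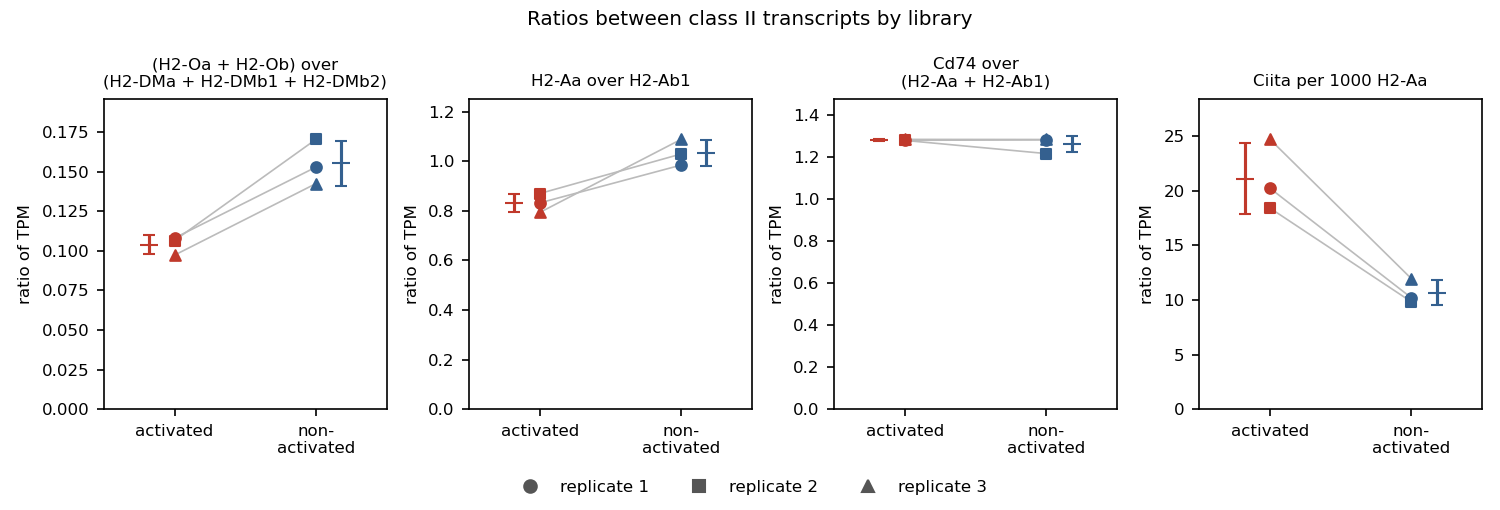
Ratios between TPM values (linear axes from 0) in each activated and non-activated library, with symbols for the replicate number, grey lines joining equal numbers and bars for the mean ± SD (n = 3). The H2-O to H2-DM and H2-Aa to H2-Ab1 ratios of the activated libraries lie below those of the non-activated ones and Ciita per 1000 H2-Aa above, with no overlap, while Cd74 to H2-Aa plus H2-Ab1 stays near 1.28.

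RSEM reports for each gene a transcript length averaged over its isoforms by abundance, so a shift in that length reflects a change in the estimated isoform mix. The length varied between libraries for 8 of the genes; Ciita and H2-Eb1 have 1 listed transcript. It separated the groups without overlap for 1 of these 8, beside 12.8% of the 10718 tested genes whose length varies (6.02% with activated cells shorter). That gene was H2-Ob, with 4 listed transcripts, at 1618, 1475 and 1525 bases in activated libraries 1 to 3 against 1717, 1674 and 1647 bases in the non-activated ones. The mean difference of -140 bases reached an exact permutation p of 0.1 (two-sided), the smallest that 3 against 3 libraries can give, and 0.8 after Benjamini-Hochberg adjustment over the 8 genes. For the other 7 genes the lengths overlapped, with exact permutation p from 0.2 to 1. For Cd74, whose p31 and p41 protein forms differ by an alternative exon, the mean lengths were 1255 bases in each group. TPM divides by this length and CPM does not: H2-Ob averaged 35.4 against 39.4 TPM, but 32.3 against 39.7 CPM, in activated and non-activated cells.

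**Figure D4:**
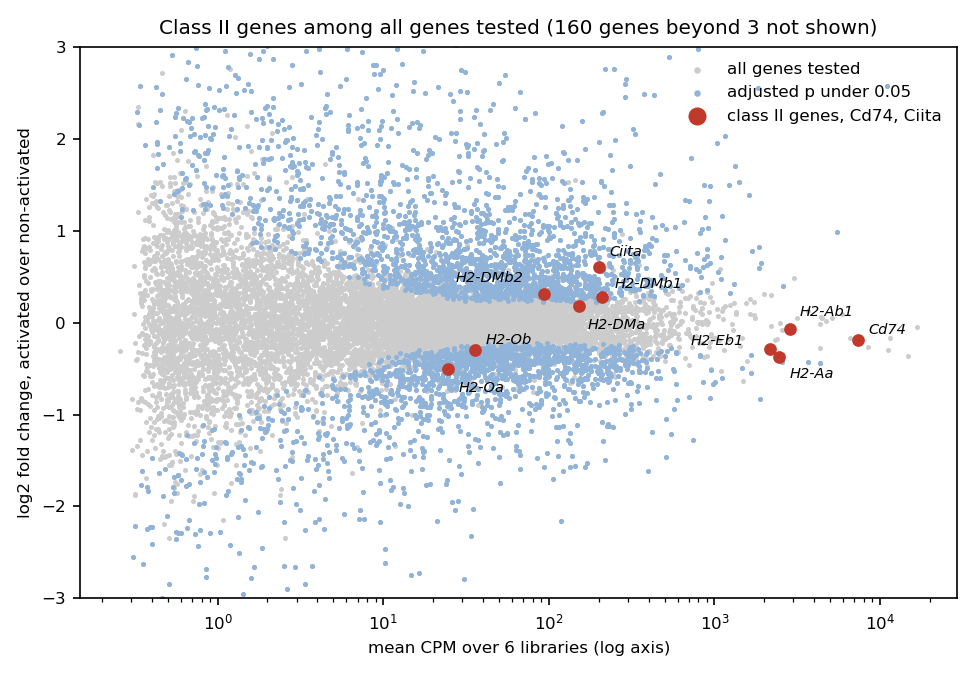
Log2 fold change of activated over non-activated cells against mean CPM over 6 libraries (log axis) for 13946 tested genes, with genes of adjusted p under 0.05 in blue and the 10 class II genes, Cd74 and Ciita included, in red; 160 genes beyond 3 on the log2 scale are not drawn. Ciita lies among the higher called genes, and the classical chains and Cd74 lie at the highly expressed end close to 0.

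Among 13 genes that control class II transcription, all tested, 5 were higher in activated cells, 0 lower and 8 did not pass, beside 15.9% higher and 11.7% lower over all genes (median log2 fold change 0.20, against 0.01 over all genes). Irf1, the interferon-induced factor that acts on the Ciita gene, was 3.92-fold higher (322 ± 13.1 against 82.1 ± 3.50 CPM in activated and non-activated cells, SD, n = 3 each; edgeR adjusted p = 2.9e-06). Irf4, a transcription factor of dendritic cells, was 2.46-fold higher (414 ± 23.8 against 168 ± 3.48 CPM; edgeR adjusted p = 2.1e-05). Prdm1, which encodes BLIMP-1, a repressor of Ciita known from plasma cells, was 2.01-fold higher (50.8 ± 4.51 against 25.3 ± 1.65 CPM; edgeR adjusted p = 0.00019). Rfx5, the DNA-binding subunit of the RFX complex, averaged 31.2 ± 3.85 CPM in activated cells and 18.9 ± 3.06 CPM in non-activated cells and passed as higher (log2 0.72 ± 0.14; edgeR adjusted p = 0.0067). Irf8 was the other that passed; Irf4 and Irf8 are also in the dendritic cell marker list. The further RFX subunits Rfxank and Rfxap did not pass (log2 0.34 ± 0.13 and -0.18 ± 0.10; edgeR adjusted p = 0.0845 and 0.24), nor did Creb1, the 3 NF-Y genes, Spi1 or Usf1.

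Of 10 genes for endosomal processing 1 was higher, 2 were lower and 7 did not pass (median log2 fold change -0.16), beside 27.6% of all genes called in either direction. Sppl2a, the protease that clears the last membrane-bound remnant of the invariant chain, was 1.59-fold higher (425 ± 23.8 against 266 ± 6.22 CPM in activated and non-activated cells; edgeR adjusted p = 0.00058). Lgmn, the asparagine endopeptidase, fell to 320 ± 53.2 CPM in activated cells, against 571 ± 67.6 CPM in non-activated cells (edgeR adjusted p = 0.0033). Napsa, an aspartic protease, fell to 132 ± 24.3 CPM in activated cells, against 199 ± 18.3 CPM in non-activated cells (edgeR adjusted p = 0.014). Without non-activated replicate 2 Napsa had an edgeR adjusted p of 0.0507, and without non-activated replicate 3 one of 0.056 (range under every alternative 0.000149 to 0.056). Ctss, the cathepsin that makes the last cuts in the invariant chain in dendritic cells, stood at 2076 and 2675 CPM (log2 -0.37 ± 0.16; edgeR adjusted p = 0.129, and 0.0245 with the replicate block). Ifi30, the endosomal thiol reductase, stood at 238 and 248 CPM (edgeR adjusted p = 0.708). With the replicate block 4 of the 10 were lower, Ctss and Ctsl in addition, beside 17.2% of all genes.

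Of 12 genes for class II turnover and traffic 11 were tested, 2 were higher, 2 lower and 7 did not pass (median log2 fold change -0.16), beside the same 27.6%. With the replicate block Rab7, a GTPase of late endosomes, was lower as well (edgeR adjusted p = 0.0451). The tetraspanins Cd82 and Cd81, membrane proteins found with class II in surface microdomains, were 5.60-fold and 3.96-fold higher (635 ± 36.9 against 113 ± 6.58 CPM and 402 ± 26.6 against 102 ± 18.2 CPM; edgeR adjusted p = 2e-06 and 4.2e-05). Cd9 and Cd63, the other tetraspanins of the list, had log2 fold changes of -0.19 and 0.16 and did not pass (edgeR adjusted p = 0.151 and 0.655). March8, a ubiquitin ligase that can downregulate class II, fell to 61.3 ± 2.01 CPM in activated cells, against 83.3 ± 1.69 CPM in non-activated cells (edgeR adjusted p = 0.0025). Lamp1, a lysosomal membrane protein, fell to 788 ± 85.9 CPM in activated cells, against 1130 ± 48.3 CPM in non-activated cells (edgeR adjusted p = 0.0087). March1, the ligase that ubiquitinates class II in dendritic cells, stood at 38.2 and 42.9 CPM (log2 -0.17 ± 0.12; edgeR adjusted p = 0.328). Cd83, which opposes it, stood at 348 and 389 CPM (log2 -0.16 ± 0.17; edgeR adjusted p = 0.515).

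**Figure D5:**
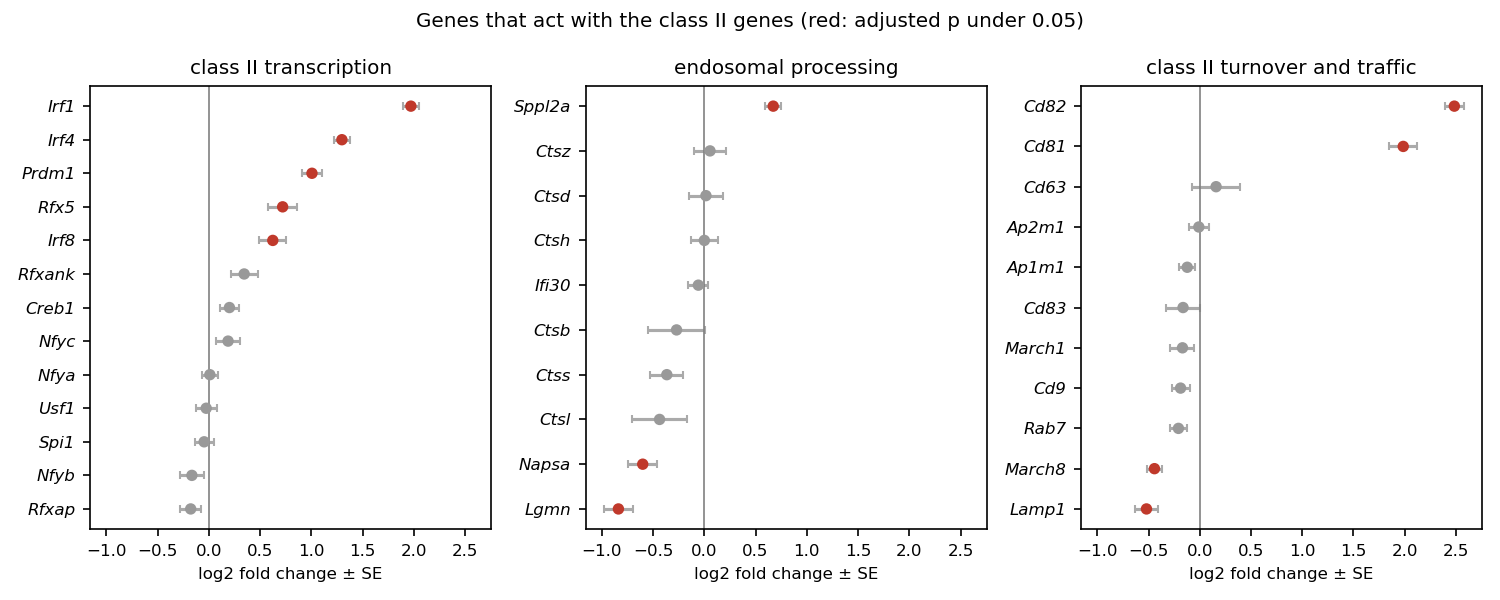
Log2 fold change ± SE of activated over non-activated cells for the tested genes of 3 lists, with genes of adjusted p under 0.05 in red. The class II transcription list holds 5 red points, all to the right of 0, while the other lists hold red points on either side.

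The 3 tested genes whose pattern over the 6 libraries was closest to that of Ciita were Ptger2, which encodes the prostaglandin E2 receptor EP2, Gdpd5, a glycerophosphodiester phosphodiesterase gene, and Wars, the tryptophanyl-tRNA synthetase gene. Likeness was the Euclidean distance between log2 CPM values centred on each gene's mean, and was 0.144, 0.154 and 0.207 for the 3 genes against a median of 1.08 over all genes. Ptger2 had 20.8, 27.3 and 30.7 CPM in activated against 15.8, 17.8 and 20.2 CPM in non-activated libraries. The log2 fold changes of Ptger2, Gdpd5 and Wars were 0.55 ± 0.16, 0.64 ± 0.25 and 0.59 ± 0.12 (SE); they were chosen for a pattern that is itself higher in activated cells, so no test is given for them.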

How the data were processed

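RNA was measured in 6 libraries, 3 per group, prepared with NEBNext Ultra reagents and read from one end, per the labels' protocols, which do not say that strand was kept. Per the file headers, the authors deposited RSEM gene tables with an expected count, TPM and FPKM per gene, plus lengths; which aligner fed RSEM is not stated there. The submitters' processing notes name GRCm38 and, with no role given, BWA, cutadapt, FastQC and limma among others. The deposited TPM served for levels, ratios and an alternative test; the deposited FPKM was not used. Symbols matched 41597 of 41813 genes, and the rest took at most 0.0452% of a library's counts.

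Expected counts were rounded and tested in edgeR 4.0.16 (R 4.3.3): filterByExpr by group, TMM, glmQLFit and glmQLFTest on group alone, Benjamini-Hochberg adjustment over all 13946 genes. The SE is the log2 fold change over the root of F. Alternatives were no filter, RLE scaling, DESeq2 1.42.0, limma 3.58.1 on log2(TPM + 0.1) and log2(TPM + 1), each library left out and a replicate block; leaving out both replicate 1 libraries was chosen after seeing the data. Same-numbered libraries deviated together from their group means (correlations 0.40, 0.31 and 0.19, against -0.31 to 0.04 for other pairs). These correlations come from the data tested here, in which the libraries numbered 1 stood apart in both groups. No label explains the numbers, so whether they pair the samples is not settled and the replicate block is given as an alternative. All replicate pairs differed by more than sampling noise (chi-square per degree of freedom 14.0 to 65.1). No label ties replicates to animals or cultures: p-values then measure only the spread between these samples, which may be technical. Named genes were the 10 members, H2-Eb2 and H2-Ea-ps, up to 4 called genes per list and direction by adjusted p, and the 3 closest to Ciita; others named without a call (such as Ctss and March1), and the markers, were chosen after their values were seen. A gene of the class II transcription list is not reported here and was left out of its counts. The members and lists were chosen with earlier results of these data known.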

Additional observations from a re-analysis of the deposited data

How the results depend on the processing

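Of the 10 genes, the number higher in activated cells, 1 as reported, was 0 on the deposited TPM with either pseudocount, 2 with the replicate block and 2 without both replicate 1 libraries; the number lower, 0 as reported, was 1 with no filter, 1 with RLE scaling, 2 in DESeq2, 4 with the replicate block and 1 without both replicate 1 libraries. Leaving out 1 library at a time gave 0 to 2 higher and 0 to 1 lower. Over all genes 2216 were higher and 1632 lower, against 2144 and 1855 with no filter and 2113 and 1743 with RLE scaling. DESeq2 gave 2179 and 1796, or 24.5% of genes in either direction. On the deposited TPM they were 1543 and 1121 with a pseudocount of 0.1 and 1550 and 1132 with 1. The replicate block called 37.2% of all genes, and the fit without both replicate 1 libraries 23.3%. Leaving out 1 library gave 1586 to 1956 higher and 1061 to 1673 lower over all genes. The fewest higher came without non-activated replicate 3 and the fewest lower without non-activated replicate 2. With the replicate block, endosomal processing had 4 lower in place of 2 and class I presentation 7 higher in place of 4. Of the class II region neighbours 1 was higher on the deposited TPM with either pseudocount, in place of 2. Leaving out 1 library gave 0 to 2 of these neighbours higher, 2 to 6 class I genes higher and 1 to 4 endosomal genes lower. Class II transcription had 5 or 6 higher and 0 lower under every alternative. Leaving out 1 library, the log2 fold change ran from -0.170 to 0.0629 for H2-Ab1 (0.0203 without both replicate 1 libraries) and from -0.0272 to 0.549 for H2-DMb2; that of Gdpd5 turned on the deposited TPM (-0.106 and -0.0737 with a pseudocount of 0.1 and 1). Mean length differences ran from -0.463 to 1.93 bases for H2-Aa, -2.32 to 0.0117 for H2-Ab1, -1.70 to 1.63 for Cd74, -39.2 to 23.4 for H2-DMa and -32.6 to 21.9 for H2-DMb1 when 1 library was left out, so their signs turned; without both replicate 1 libraries they were -0.075 for H2-Aa and 1.03 for Cd74. For H2-Ob it ran from -179 to -108 bases. The cause of these shifts was not tested. The median log2 fold change of all genes ran from -0.0107 to 0.0148 over the fits, which do not all hold the same genes. It does not measure the shift of single genes. With no filter, the log2 fold change was -0.402 for H2-Aa and 0.583 for Ciita, against -0.375 and 0.610 as reported.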

Other observations

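Genes of the MHC class I route, which shows cytosolic peptides to CD8 T cells, were followed for comparison. Of 13 genes 4 were higher in activated cells, 0 lower and 9 did not pass, with a median log2 fold change of 0.23, beside 15.9% of all genes higher. With the replicate block 7 were higher, beside 20.0% of all genes. Nlrc5, the class I counterpart of Ciita, was 2.87-fold higher (130 against 45.1 CPM in activated and non-activated cells; edgeR adjusted p = 0.00067), and the immunoproteasome gene Psmb10 was 1.58-fold higher (93.2 and 58.8 CPM; edgeR adjusted p = 0.00067). The class I chain genes H2-K1 and H2-D1 stood at 3844 and 5212 CPM in activated cells, against 3528 and 5021 CPM in non-activated cells, and B2m, their light chain, at 4331 against 4386 CPM; none of the 3 passed (edgeR adjusted p = 0.42, 0.789 and 0.922). Whether Nlrc5 and Ciita differ in their change was not tested.

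The 5 other protein-coding genes that lie between H2-Oa and H2-Eb1 on chromosome 17 are Tap1, Tap2, Psmb8, Psmb9 and Brd2, 4 of them also in the class I list. Tap1 and Tap2, the subunits of the peptide transporter, were 1.34-fold and 1.30-fold higher in activated cells (478 against 357 CPM and 348 against 268 CPM; edgeR adjusted p = 0.0297 and 0.02). Neither gene passed once activated replicate 3, non-activated replicate 2 or non-activated replicate 3 was left out, with edgeR adjusted p from 0.0637 to 0.108; Tap1 did not pass without activated replicate 2 either (edgeR adjusted p = 0.0748), nor Tap2 on the deposited TPM (limma adjusted p = 0.0902). Brd2, which overlaps H2-DMa in the annotation, stood at 514 against 551 CPM (edgeR adjusted p = 0.419).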
